A study of Drosophila melanogaster with 48 samples.

Results

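The wide open regions described here are 611 stretches of accessible chromatin in Drosophila S2 cells. Each is 600 bp or wider in the list of open regions called over the HA-Twi copper titration, lies on 2L, 2R, 3L or 3R, and overlaps all 9 other lists of the series by at least 1 bp. They were chosen by their width in that 1 list and by their presence in the others, so both values are given as a description. The HA-Twi titration list held 25397 regions, of which 20397 lay on these 4 arms and 620 were 600 bp or wider (3.04%). The 611 make up 98.5% of those 620. For comparison, 69.7% of the 19777 narrower regions of the same arms overlapped all 9 other lists, which gives 13794 narrower regions in all lists.

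S2 cells are an embryo-derived line that resembles hemocytes, the blood cells of insects. The assay was ATAC-seq: a transposase cuts DNA that is not wrapped in nucleosomes, and the cut ends are sequenced. The series has 48 libraries, 2 per group, all taken at 48 h. CuSO4 was added to the medium of all groups but the 0 uM titration groups. Cells with inducible full-length Grainyhead (Grh) received 100 uM, Zelda (Zld) 1000 uM and Twist (Twi) 40 uM, and S2-WT cells received the same doses as controls. Cells with only the DNA-binding domain (DBD) received 20 uM (Grh DBD) or 100 uM (Zld DBD), again beside S2-WT cells at those doses. In the titrations, Grh cells were given 0, 25, 100 or 400 uM, Zld cells 0, 500, 1000 or 1500 uM and HA-Twi cells 0, 10, 40 or 160 uM. A further 2 groups were Grh DBD cells at 80 uM and Zld DBD cells at 400 uM. Where S2-WT controls were used, copper is thus shared by the factor cells and those controls. In the full-length titrations the 0 uM cells carry the factor's gene without induction, so copper and induction change together there. The labels do not say whether a line is 1 clone.

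Of the 10 lists, 8 were called over several groups together, so a region there can come from control cells, factor cells or both. No label ties the 2 DBD titration lists to libraries. No value can thus be assigned to 1 library, and the depth per library is unknown. No test across replicates is possible with such lists, and no p-value is given. Shares carry exact binomial 95% intervals. These hold the counting error of regions alone, and a region is no replicate of a condition.

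Open regions mark promoters, where transcription begins, and enhancers, where transcription factors bind at a distance from the genes they act on. A compact promoter usually gives a single stretch without a nucleosome. An enhancer bound at several places, or a set of neighbouring elements, can keep a longer stretch open and show several local maxima of signal, called summits. In flies, many enhancers lie in the introns of long developmental regulator genes. Genes of the ecdysone response, which carry out the steroid hormone programme of molting and metamorphosis, are a well-studied case, and the S2 line responds to that hormone.

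**Figure D1:**
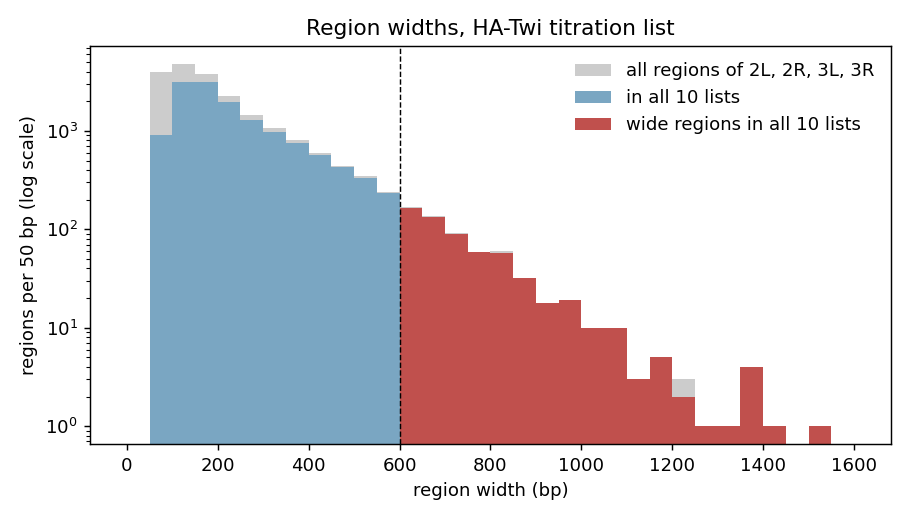
Number of regions per 50 bp of width (log scale) in the HA-Twi titration list on 2L, 2R, 3L and 3R, for all 20397 regions, those in all 10 lists and the 611 wide regions, with the 600 bp limit dashed. Widths fall away smoothly through the limit up to 1549 bp, and nearly every region to its right is in all 10 lists.

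The 611 regions had a median width of 704 bp, with a middle range of 646 to 812 bp and a maximum of 1549 bp. Narrower regions in all lists had a median of 193 bp. The limit cut through a continuous distribution. Just inside it at 600 bp stood regions nearest to Oscillin, to px and to CG43245, with fold enrichments of 13.8, 3.42 and 8.54. Just outside it at 599 bp stood regions nearest to Ten-m, CG42327 and CG5849, with fold enrichments of 16.3, 19.4 and 12.2. Fold enrichment is the authors' own ratio of signal to background at a summit, and the strongest summit of each region was used.

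Of the 10 widest regions, 9 lay inside protein-coding genes. The widest, 1549 bp at 3R:9428107-9429655 (dm6), lay inside ps, which encodes the RNA-binding splicing factor Pasilla, and had 6 summits and a fold enrichment of 19.4. A region of 1416 bp at 2R:24275280-24276695 lay inside nvy, a gene of the ETO family of co-repressors. After these came 1387 bp inside tara (3R:16249481-16250867), which encodes a regulator of the cell cycle and of trithorax function. A region of 1371 bp at 3R:20764910-20766280 lay inside Syp, which encodes an RNA-binding protein, with CG31195 as the nearest gene end.

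Next in width was 1364 bp at 3R:11352488-11353851, inside pros and over ends of the kinase genes KP78a and KP78b. A region of 1354 bp at 3R:23325697-23327050 lay inside pnt, an Ets transcription factor gene of the EGFR pathway. The rest of the 10 were 1324 bp inside the phosphodiesterase gene Pde8, 1293 bp inside CG34376 with the proteasome gene Rpn7 as nearest end, 1229 bp beside the chitinase gene Cht7 and 1213 bp inside Pvr. Pvr encodes the PDGF/VEGF-type receptor of hemocytes. Of these 10 regions, 8 were also 600 bp or wider in all 9 other lists; those in ps and beside Cht7 were not.

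The wide regions were stronger than the typical region of the list. Their fold enrichment was 13.3 in the median and ranged from 2.90 to 42.2, beside a median of 8.09 for narrower regions in all lists. They make up 3.00% of the regions of the 4 arms. They were 0 of the 10 strongest regions, 2 of the 100 strongest and 73 of the 1000 strongest (7.30%). Those 100 strongest had a median width of 290.5 bp. Across width classes of regions in all lists, the median fold enrichment was 6.26 under 200 bp, 10.3 at 200 to 399 bp, 12.4 at 400 to 599 bp, 13.7 at 600 to 799 bp and 12.8 at 800 bp or more.

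The strongest wide regions had other neighbours than the widest ones, and no region was among the top 10 by both measures. First was a region of 628 bp beside SoxN, a Sox family transcription factor gene (2L:8825221-8825848, fold enrichment 42.2). A region of 870 bp inside dnr1, which encodes an inhibitor of the Imd immune pathway, followed with 41.9 (2R:22569721-22570590). The next were inside stw, the laccase gene of cuticle tanning (38.9), and beside Oat, which encodes ornithine aminotransferase (37.9). A region beside bab2, a transcription factor gene of leg and ovary development, had 37.4. The others stood nearest to the melanization protease gene MP1 (36.9), to rau (34.6), to the cathepsin gene CtsF (34.3), to CG6006 (34.2) and to the mitochondrial carrier gene aralar1 (33.8). The weakest wide region, with a fold enrichment of 2.90, lay inside Marf1.

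Nearly all wide regions held several summits. The number was 3 in the median region and reached 8. It was 1 in 5 regions, 2 in 135, 3 in 246, 4 in 146, 5 in 54, 6 in 17, 7 in 6 and 8 in 2. In all, 606 of 611 had 2 or more (99.2%, 98.1 to 99.7), against 19.6% (19.0 to 20.3) of narrower regions in all lists. A wider region has more room for summits. Per kb of region the wide ones had fewer, at 4.44 against 5.39. Every region has at least 1 summit, so a narrow region scores high per kb. Neither comparison is thus free of width, which the rule used. Median width went from 652 bp with 2 summits to 686.5 bp with 3, 760 bp with 4, 860 bp with 5 and 985 bp with 6.

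The regions with most summits were the Pvr region, with 8 over 1213 bp, and a region of 1178 bp outside genes near the rhodopsin gene Rh5 (2L:12011404-12012581), also with 8. Their fold enrichments were 15.0 and 4.24. Regions inside tara, Syp, CG34376, brat, which encodes a translational repressor, and tna, and 1 beside CG6163, had 7 each. At the other end, the 5 regions with 1 summit stood nearest to IP3K1, CG3808, MP1, corto and Gr93a, with widths of 612 to 668 bp.

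Neighbouring summits of a wide region lay 190 bp apart in the median, with a middle range of 127 to 261 bp over 1416 spacings. In narrower regions with several summits the median was 144 bp over 3286 spacings. The width of a region bounds its spacings, and the rule used width, so these medians are a description only. The summits of a wide region spanned a median of 452 bp. The second strongest summit reached a median of 70.5% of the fold enrichment of the strongest, and at least 50% of it in 449 regions (73.5%). With each region cut into 3 equal parts, the strongest summit lay in the middle part in 262 regions (42.9%) and in an outer part in the rest.

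The wide regions stood near gene ends less often than narrower regions did. Their strongest summit lay within 500 bp of an end of a protein-coding gene in 130 of 611 (21.3%, 18.1 to 24.7), against 49.8% (48.9 to 50.6) of narrower regions in all lists. A further 395 (64.6%, 60.7 to 68.4) lay inside a gene and farther than 500 bp from an end, against 39.5%. The remaining 86 (14.1%) lay outside genes and farther away, against 10.7%. The median distance to the nearest gene end was 2789 bp, against 506.5 bp. More than 5000 bp from any gene end stood 224 wide regions (36.7%), against 19.6% of narrower ones. The gene table used has no strand, so a gene end here is either its start or its 3' end.

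The shares were read against the DNA itself. Of the bases of the 4 arms, 15.4% lie within 500 bp of a protein-coding gene end, 55.6% inside a gene and farther away, and 29.1% outside genes and farther away. Near gene ends, narrower regions in all lists had 49.8%. The wide regions had 21.3% (18.1 to 24.7), which was closer to the 15.4% of the DNA but above it. Outside genes and far from ends, their share of 14.1% (11.4 to 17.1) was below the 29.1% of the DNA. Arms held similar portions, with 151 wide regions on 2L (3.37% of that arm's regions), 127 on 2R (2.60%), 150 on 3L (2.92%) and 183 on 3R (3.10%).

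**Figure D2:**
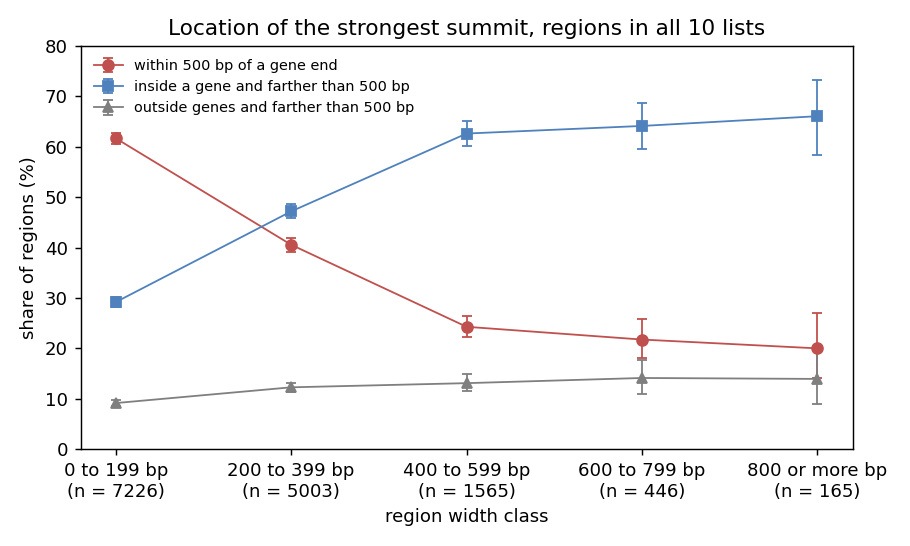
Share of regions in all 10 lists (%) whose strongest summit lay within 500 bp of a gene end, inside a gene and farther, or outside genes and farther, by region width class; bars are exact binomial 95% intervals over regions. The gene end share went from 61.7% under 200 bp to 24.3% at 400 to 599 bp and 20.0% at 800 bp or more.

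The change came before the 600 bp limit. Among regions in all lists, the share within 500 bp of a gene end was 61.7% under 200 bp, 40.6% at 200 to 399 bp and 24.3% at 400 to 599 bp. It was 21.7% at 600 to 799 bp and 20.0% at 800 bp or more. The last 3 intervals overlap, as the plot of location by width shows, so the 600 bp limit marks no step in location. Strength was also compared. Between fold enrichments of 9.39 and 18.9, the middle range of the wide regions, 57 of 305 wide regions (18.7%, 14.5 to 23.5) lay near a gene end, against 2348 of 4038 narrower ones (58.1%, 56.6 to 59.7). The difference was thus larger at like fold enrichment than over all regions. The comparison was added after the data were seen.

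The share that covered a gene end was lower among wide regions than among all narrower ones, but not lower than at 400 to 599 bp. In 113 of 611 (18.5%, 15.5 to 21.8) an end of a protein-coding gene lay within the region itself, against 30.7% (29.9 to 31.4) of narrower regions in all lists. By width, the share was 36.7% under 200 bp, 26.1% at 200 to 399 bp and 17.0% (15.2 to 19.0) at 400 to 599 bp. At 600 to 799 bp it was 17.9%, and at 800 bp or more 20.0%. Between fold enrichments of 9.39 and 18.9, it was 52 of 305 wide regions (17.0%) against 42.5% (41.0 to 44.1) of narrower ones. Ends of 2 genes lay within 11 wide regions. The widest of these were the KP78a and KP78b region, then 1069 bp over CG14642 and CG34305. The others included 836 bp over the splicing factor gene Sf3a1 and the catalase-related gene Irc, 818 bp over the chaperone gene Hsp83 and CG14966, and 726 bp over AcCoAS and ppl.

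Genes with a wide region inside were long. The 453 wide regions inside genes lay in genes with a median length of 24331 bp, where narrower regions in all lists lay in genes of 13307 bp and all protein-coding genes of the arms had a median of 2080 bp. A base picked evenly from all gene sequence lies in a gene of 24376 bp in the median, which is close to the median for the wide regions. The middle range was narrower for the wide regions, 10268 to 53310 bp against 6217 to 63007 bp for gene sequence. Genes of 50000 bp or more held 26.3% of them and 30.6% of all gene sequence, against 17.0% of narrower regions inside genes. Genes under 5000 bp held 7.95% of them and 21.4% of gene sequence. Where genes overlap, a region was counted for the longest gene that holds it. Gene sequence counts every gene, also a short gene inside a long one. The shares of regions and of gene sequence are thus unlike measures, and their differences were not tested.

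In total, 513 genes were nearest to a wide region, which is 4.41% of the 11645 protein-coding genes of the 4 arms, and the bodies of 472 genes (4.05%) overlapped one. Of the 453 regions inside a gene, 360 lay in the gene whose end was nearest and 93 were nearest to an end of another gene. Below, a region is therefore named by its nearest gene or by the gene it lies in, and for some regions both are given. Of genes under 5000 bp, 1.03% overlapped a wide region; of genes from 5000 to 19999 bp, 9.79%; from 20000 to 49999 bp, 20.2%; and of 50000 bp or more, 31.2%.

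Several genes held more than 1 wide region. Of 390 genes with a wide region's summit inside, 69 held at least 2 and 19 at least 3. Eip74EF, which encodes an Ets transcription factor of the early ecdysone response, held 6 within 48988 bp (3L:17563479-17612466). The genes bun, spen, tara and ush held 4 each. They encode a TSC22-type transcription factor, an RNA-binding co-repressor, the Taranis protein and a zinc finger cofactor of GATA factors. The others with 3 included the ecdysone receptor gene EcR, the RNA-binding protein genes Syp and pum, the Fos gene kay, pnt, the Pipsqueak gene psq, Tet, brat and the bZIP gene vri.

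Some of the 611 wide regions stood near each other, both inside genes and outside them. The median gap between a wide region and its nearest neighbour of the set was 30884 bp, but 167 of 611 (27.3%) had another within 10000 bp. A total of 88 regions formed 26 groups of 3 or more with gaps of at most 20000 bp. Many of these groups lay inside genes, and the largest was that of 6 in Eip74EF. Outside genes, a group of 4 lay within 9548 bp near Hacd1 and on both sides of Rh5 (2L:12003034-12012581). None of them lay inside an annotated gene. Their widths were 871, 847, 1132 and 1178 bp and their fold enrichments only 4.17 to 6.72. A group of 3 at 3L:10736779-10740625 lay at least 31776 bp from the nearest gene, CG43245. A group of 3 lay in the Enhancer of split complex on 3R.

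The ecdysone response list had the most genes beside wide regions. Of its 14 genes on the 4 arms, 9 were nearest to a wide region, 10 overlapped one and 11 did either. The nearest-gene share was 64.3%, beside 4.41% of all genes. These genes are long, with a median of 36624.5 bp. Of its 10 genes of 20000 bp or more, 9 overlapped a wide region, beside 188 of 801 such genes on the arms (23.5%). No list was tested, and the lists were chosen with earlier results of these data known.

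**Figure D3:**
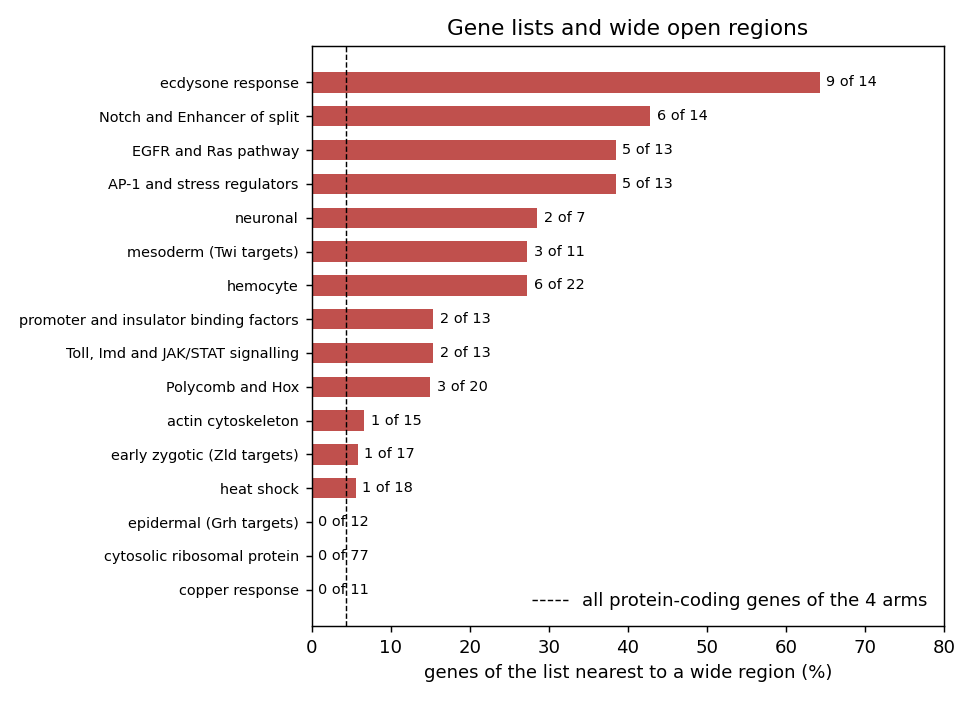
Share of each gene list's genes on 2L, 2R, 3L and 3R (%) that are nearest to a wide region, with the counts beside the bars and the 4.41% of all 11645 protein-coding genes dashed. The ecdysone response list stands at 64.3%, and the epidermal, ribosomal protein and copper response lists at 0.

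The hormone's receptor gene EcR held 3 wide regions of 1075, 976 and 662 bp (2R:6132818-6133892, 2R:6134232-6135207 and 2R:6141207-6141868), with CG14589 as the nearest gene end. Of the early genes, Eip74EF had 6. Eip75B, a nuclear receptor gene, had 3, of which 1 lay 194 bp from an end of the gene with 776 bp (3L:17950114-17950889). Nuclear receptor genes of the next tier also had them: Hr39 had 3, the widest 1068 bp at 49 bp from a gene end, ftz-f1 had 2, Eip78C had 1 and Hr3 had 1 inside. Eip93F, a transcription factor gene of late metamorphosis, had 2, and the repressor gene Blimp-1 had 1 with a fold enrichment of 26.6. ImpL2, which encodes a secreted insulin-binding protein, was nearest to 1 and held 2, and the kinase gene Eip63E was nearest to 1.

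The 6 Eip74EF regions were 675, 687, 975, 821, 607 and 697 bp wide in the HA-Twi titration list, with fold enrichments of 24.6, 11.5, 7.80, 24.7, 10.3 and 6.09. All lay more than 5000 bp from an end of the gene. Region 3, counted along the chromosome, kept a width of 887 to 992 bp over the 10 lists. Regions 1, 2 and 4 were 600 bp or wider in the 8 lists with summits and 448 to 543 bp in both DBD titration lists, which are made of 200 bp windows. Region 5 stood between 565 and 623 bp throughout. The widest of the group was neither of the 2 strongest.

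Genes of signalling pathways followed. Of 14 genes of the Notch list, 6 were nearest to a wide region (42.9%), beside 4.41% of all genes. Those were the E(spl) complex genes E(spl)mbeta-HLH, E(spl)malpha-BFM and E(spl)m3-HLH, which are targets of Notch, the ligand gene Ser, the protease gene kuz and the Notch inhibitor gene numb. The E(spl) regions were 864, 676 and 706 bp wide, lay outside protein-coding genes and were 600 bp or wider in all 10 lists. The numb region was 812 bp wide in the HA-Twi titration list. In each of the 9 others it was broken into 2 or 3 regions, the widest of 386 to 454 bp.

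Of 13 genes of the EGFR and Ras list, 5 were nearest to a wide region (38.5%) and 6 overlapped one. Over all genes the shares were 4.41% and 4.05%. The ligand gene spi had a region of 789 bp, the protease gene rho 1 of 636 bp at 95 bp from a gene end, and the inhibitor gene aos 1 of 681 bp. The region nearest to rho lay inside another gene, Ptp61F. The phosphatase gene Mkp3 had 2 (696 and 818 bp) and pnt had 3 (708, 1354 and 993 bp); aop, an Ets repressor gene, held 1 of 699 bp. Of the 7 genes of that list with 20000 bp or more, 3 overlapped a wide region, beside 23.5% of all such genes. Of 13 AP-1 and stress regulator genes, 5 were nearest, namely kay, the kinase gene msn, the Ets gene Ets21C, the FOXO gene foxo and the matrix metalloproteinase gene Mmp1. The median length in that list was 16891 bp, and 3 of its 5 genes of 20000 bp or more overlapped a wide region. Of 13 genes of the Toll, Imd and JAK/STAT list, the inhibitor gene cact and the NF-kappaB gene Dif were nearest to 1 each.

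Of 22 hemocyte genes, 6 were nearest to a wide region (27.3%, beside 4.41% of all genes) and 5 overlapped one. In addition, 15 of the 22 were nearest to a region of any width in all lists, beside 53.9% of all genes. The 6 were the GATA factor gene srp, its cofactor gene ush, the collagen IV genes vkg and Col4a1, Pvr and kay. The Pvr region was 1196 to 1267 bp wide in the 10 lists, with fold enrichments between 8.13 and 15.0. The srp region was 622 bp wide, 932 bp from a gene end, and 572 to 636 bp wide over the lists. The vkg region was weak, with a fold enrichment of 3.01, and met 3 regions in the Zld DBD list, the widest of 98 bp. Of 11 hemocyte markers, 9 were nearest to a region of the HA-Twi titration list and 5 to a wide one, namely srp, ush, vkg, Col4a1 and Pvr. The markers Pxn, Hml, Ppn, NimC1, eater and crq were nearest to no wide region. For 4 epidermal markers the counts were 4 and 0. The counts were 3 and 1 of 4 neuronal markers (Syx1A), 1 and 1 of 3 muscle markers (Mef2), and 1 and 0 of 3 germline markers. None of these counts measures expression.

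Several lists had few or no genes nearest to a wide region. The share over all protein-coding genes of the arms was 4.41%, and 2.08% over those under 5000 bp. Counts this low in lists of 11 to 18 genes stand near such shares and set no list apart. Of 77 cytosolic ribosomal protein genes, 65 were nearest to a region in all lists and 0 to a wide one; their median length was 1284 bp. Short genes did not always lack them. E(spl)mbeta-HLH, E(spl)malpha-BFM and E(spl)m3-HLH, of 978, 676 and 1305 bp, were nearest to 1 each, all in the same complex. The other genes of the Notch list nearest to a wide region, Ser, numb and kuz, had 22178 bp or more. Copper response genes stood at 6 and 0 of 11. The region at MtnA, a copper-inducible metallothionein gene, had a fold enrichment of 39.2 and was 424 bp wide in the HA-Twi titration list, and in the 9 others the widest there had 230 to 564 bp. Of 18 heat shock genes, Hsp83 was nearest to a wide region (5.56%), and of 15 actin cytoskeleton genes, Act42A was (6.67%, 791 bp). Epidermal genes, with a median length of 9128.5 bp, stood at 0 of 12.

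Genes of the other factors' programmes were mixed, beside the 4.41% of all genes that were nearest to a wide region. Of 11 mesoderm genes, Mef2, a muscle transcription factor gene, Traf4 and how were nearest (27.3%), and the FGF gene ths overlapped a wide region. The Mef2 region was strong, with a fold enrichment of 33.0 over 646 bp. Of 17 early zygotic genes, hry, a pair-rule gene, was nearest (5.88%), to 2 regions of 831 and 731 bp. Of 20 Polycomb and Hox genes, wg, en and Psc were nearest and 1 overlapped a wide region. None of the 7 genes of that list with 20000 bp or more did, beside 23.5% of all such genes. Of 13 promoter and insulator factor genes, psq and ttk were nearest and Trl, the GAGA factor gene, overlapped a region of 747 bp. Neuronal genes stood at 2 of 7 (28.6%), Dscam1 and Syx1A. The neuronal and mesoderm lists hold long genes, with medians of 36312 and 18792 bp. Of genes of 20000 bp or more, 1 of 5 neuronal and 3 of 5 mesoderm genes overlapped a wide region.

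**Figure D4:**
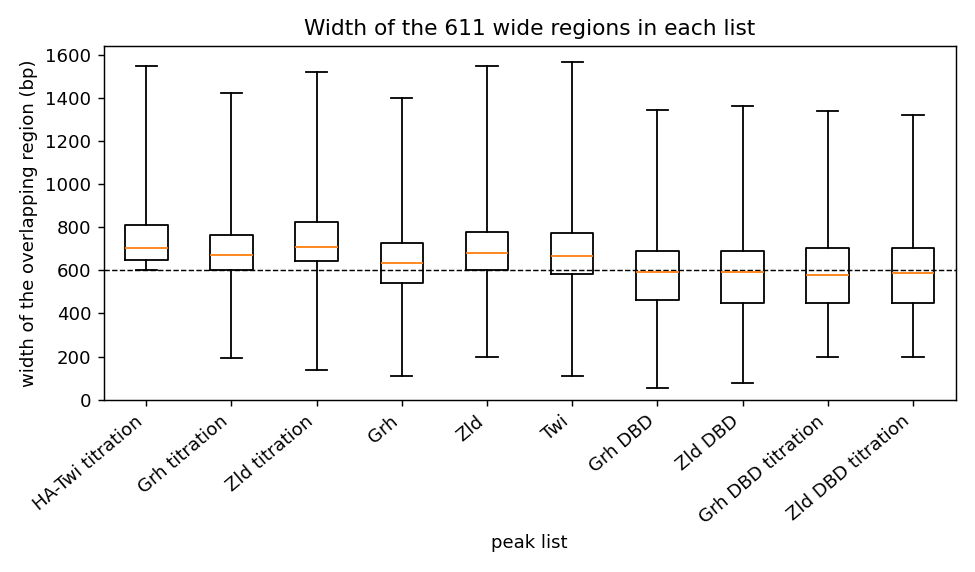
Width (bp) in each of the 10 lists of the widest region that overlaps each of the 611 wide regions; boxes give quartiles and median, whiskers the lowest and highest value, and the dashed line 600 bp. Medians lie between 578 bp (Grh DBD titration) and 709 bp (Zld titration).

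The same places were then measured in the 9 other lists, where width had not been used to choose them. Each wide region met a different region in each of those lists, 611 distinct ones per list. Their median width was 669 bp in the Grh titration list, 709 bp in that of Zld, 636 bp in the Grh list, 679 bp in the Zld list and 666 bp in the Twi list. It was 593 and 594 bp in the Grh DBD and Zld DBD lists, and 578 and 588 bp in their titration lists. The medians of all regions of the arms stood far lower, between 120 bp in the Zld DBD list and 200 bp in the DBD titration lists, where 200 bp is the window itself.

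Of the 611 places, 545 (89.2%, 86.5 to 91.5) were 600 bp or wider in the Zld titration list, where 4.23% of all regions on the arms are. In the Grh titration list the count was 463 (75.8%), beside 2.85% of all, and in the Zld list it was also 463, beside 2.72%. The Twi list gave 436 (71.4%, beside 1.72%) and the Grh list 384 (62.8%, beside 1.53%). The Grh DBD list gave 294 (48.1%, beside 1.49%), the Zld DBD list 295 (48.3%, beside 1.23%), and their titration lists 282 (46.2%, beside 1.78%) and 293 (48.0%, beside 1.69%). Copper dose, factor, library depth and peak calling differ between the lists and cannot be told apart here.

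In every list the places also had a higher median fold enrichment than all regions of the arms. The rule favours this, since each place had to be called in all 10 lists. In the HA-Twi titration list, narrower regions in all lists also stood higher, at 8.09 against 5.59 over all regions. Such narrower regions were not compared in the other lists. The median fold enrichment of the places was 11.6 in the Grh titration list, against 4.59 over all regions of the arms, and 10.9 against 4.48 in that of Zld. In the Twi list, the longest, it was 8.82 against 1.74. From 93.5% of the places (Grh DBD titration list) to 99.0% (Grh list) stood at or above the list's median fold enrichment. In the Twi list 77.3% were in the top 10% of fold enrichment, against 25.7% in the HA-Twi titration list, whose regions are fewer and stronger. These shares depend on how many weak regions a list holds.

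Some wide regions were broken into several elsewhere. In the Zld titration list 51 of 611 (8.35%) met 2 or more regions, in the Grh titration list 96 (15.7%), in the Grh list 164 (26.8%) and in the Zld DBD list 193 (31.6%). The rest of the lists stood between 106 and 179. Over the 8 lists with summits, the narrowest width of a place had a median of 543 bp and the widest a median of 754 bp. The typical difference between them was 248 bp.

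A total of 156 places (25.5%, 22.1 to 29.2) were 600 bp or wider in all 10 lists, and 18 (2.95%) only in the HA-Twi titration list. The 156 had a median width of 801.5 bp and 3.86 summits on average, against 681 bp and 3.13 for the other 455. Their fold enrichment was slightly lower, at 12.3 against 13.8 in the median. Their share near a gene end was 16.7% (11.2 to 23.5) against 22.9% (19.1 to 27.0), with intervals that overlap. Of the widest in every list, the pnt region had 1334 to 1408 bp in the lists with summits, the Syp region 1291 to 1386 bp, the CG34376 region 1286 to 1366 bp and the Pvr region 1196 to 1220 bp. The Rh5 region had 1178 to 1282 bp in the same lists.

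**Figure D5:**
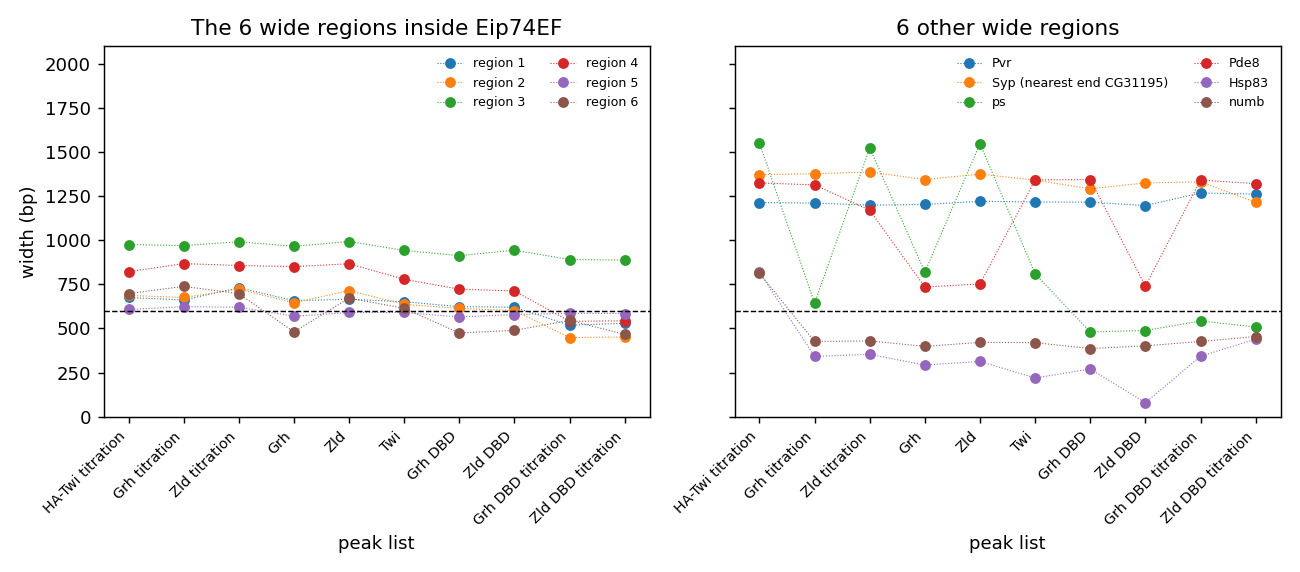
Width (bp) in each list of the 6 wide regions inside Eip74EF, numbered along the chromosome, and of 6 other wide regions; the dashed line marks 600 bp and dotted lines only link the points of 1 region. The Pvr and Syp regions keep 1196 bp or more in every list, while the ps, Pde8, Hsp83 and numb regions change width or are broken into several between lists. Where a list has several regions at a place, the widest is plotted.

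Other places changed width or were broken into several regions between the lists, as the plot of single regions shows. Where a place met several regions, the width given is that of the widest. The ps region, the widest of all, had 1549, 1522 and 1547 bp in the HA-Twi titration, Zld titration and Zld lists. In the 7 other lists it was broken into 2 or 3 regions. The widest had 808 and 819 bp in the Twi and Grh lists, 643 bp in the Grh titration list and 480 to 542 bp in the 4 DBD lists. The Pde8 region had 1313 to 1343 bp in the Grh titration, Twi, Grh DBD and Grh DBD titration lists. In the Grh, Zld and Zld DBD lists it was broken into 2 or 3 regions, the widest of 734 to 752 bp. The Hr39 region at 49 bp from the gene's end had 1061 to 1151 bp in the 3 full-length titration lists. In each of the 7 others it was broken into 2 regions, the wider of 496 to 511 bp. The Hsp83 region had 818 bp in the HA-Twi titration list and 79 to 439 bp elsewhere.

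Only 9 of the 620 regions of 600 bp or wider failed to overlap all lists. The widest of them, 1213 bp at 2R:23046483-23047695 inside twi, was absent from 7 lists and present in the Twi and Grh lists. The gene is that of the factor expressed in the HA-Twi and Twi lines. The widest region at twi had 1223 bp in the Twi list and 304 to 606 bp in the 8 lists of other factors. A region of 847 bp inside htl, the FGF receptor gene of the mesoderm (3R:18049920-18050766, fold enrichment 11.6), was absent from both DBD titration lists. One of 670 bp in CG9416 was absent from 5 lists and one of 733 bp in hng3 from 3. The rest lay in Ziz, raw, sick, Lmpt and fz2, and were absent from 1 or 2 lists. All 9 were in the Twi list. Neither grh nor zld held a wide region of the set; zld lies on the X, which the choice of arms leaves out.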

How the data were processed

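The deposited files are 10 narrowPeak lists in dm6. Bowtie2 and MACS2, along with deepTools 3.5.1, featureCounts and DESeq2, appear in the submitters' processing notes. The notes used here state no settings, roles or shift for the transposase. Per the labels, each of 8 lists covers the control and factor libraries of 1 experiment or all doses of a titration. No label ties the 2 DBD titration lists to libraries. Each deposited peak has the authors' fold enrichment, which is its ratio to local background, and their −log10 q (at least 1.30). Their score and −log10 p also stand in the deposited lists and were not used. In both DBD titration lists the rows are 200 bp windows with no summit, so window midpoints stood in for summits.

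Rows with the same peak number were joined from first start to last end, keeping the summit with the highest fold enrichment. The gene table is RefSeq's for Release 6, with 17872 genes, 13962 of them protein-coding, and no strand. The protein-coding gene whose end was nearest to the strongest summit was taken as a region's gene. The plan named gene starts and promoter motifs; gene ends were used instead and motifs were not run, since no strand or sequence was used here. Of 331 symbols in 16 gene lists, 6 were matched by synonym and 2 were not matched.

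The members and lists were chosen with earlier results of these data known. Named genes are those of the 10 widest and 10 strongest regions, of regions with most summits, of genes with most regions, of the fixed lists and of regions at the 600 bp limit; others were chosen after their values were seen. Functions for overlap and nearest genes, tested on simulated data of 4000 and 1000 regions, gave 0 differences from direct comparison. Depth per library is unknown. Alternatives changed width, overlap, −log10 q, lists, base list and distances. Scripts ran under Python 3.11.15 with scipy 1.17.1 for the intervals, pandas 2.3.3, matplotlib 3.10.9 and numpy 2.4.6.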

Additional observations from a re-analysis of the deposited data

How the results depend on the processing

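Of 87 alternative values, 63 stayed within 1.5 times the count, within the binomial interval of the share or within 1 SD of the median, and 24 moved. With a minimum width of 500 bp there were 1182 regions nearest to 895 genes, and 94.9% had several summits. With 800 bp there were 165 regions nearest to 153 genes, with a median width of 886 bp; 100% had several summits and 20.0% kept that width in all 9 other lists. The hemocyte count was then 1 and the ecdysone count 3. With 1000 bp there were 38 regions nearest to 37 genes, with a median width of 1094 bp; 100% had several summits and 21.1% kept that width, and each of the 2 gene counts was 1. Without the DBD titration lists, 35.4% were 600 bp or wider in all other lists. With the Zld titration list as base the share near a gene end was 25.9% and the share wide in all lists 17.7%. The share near a gene end was 12.1% within 200 bp, 30.9% within 1000 bp and 29.1% for any part of the region. Genes with an end inside a region numbered 123. Gene lists were recomputed for hemocyte and ecdysone genes; the latter were added after the data were seen. An overlap of 50%, a −log10 q of at least 10 and the Grh titration list as base moved none of the 10 results. No paired analysis was possible because 8 lists pool libraries and the other 2 are tied to none, and leaving out a replicate was not possible for the same reason. The lists give no depth, so widths are not adjusted for it.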

Other observations

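Of the 158 wide regions outside protein-coding genes, 18 had their strongest summit inside a long noncoding RNA gene of the table. Among these were the srp region, inside lncRNA:CR42839, the E(spl)m3-HLH region, inside lncRNA:CR43644, and the region of 1108 bp with 7 summits beside CG6163, inside lncRNA:CR45036. With ends of all annotated genes counted, 28.6% of the wide regions lay within 500 bp of an end, against 53.9% of narrower regions in all lists. These genes were chosen after their values were seen.

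The 18 regions that were 600 bp or wider only in the HA-Twi titration list included those nearest to the amino acid transporter gene CD98hc (979 bp), to zormin (965 bp), to wge (823 bp), to Hsp83 (818 bp) and to the ribonucleoprotein gene Hrb87F (674 bp). Their fold enrichments were 16.2, 9.01, 11.6, 4.21 and 25.7. Why they were narrower or broken into several regions elsewhere was not tested.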
